A study of Mus musculus with 2 samples.

Results

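Peaks of TOBF1 that lay just outside genes were examined in mouse embryonic stem (ES) cells. A peak was taken when its midpoint lay outside every protein-coding gene and over 1 kb and up to 5 kb from the nearest end of one, on chromosomes 1 to 19. This left 843 of the 11545 peaks on these chromosomes (7.30%, exact 95% interval 6.83 to 7.79%), of 12181 peaks in all. TOBF1, the product of A830080D01Rik, was precipitated with an anti-GFP antibody from R1/E cells that carried a tagged TOBF1 on a bacterial artificial chromosome (BAC). The cells were grown in medium with fetal serum and LIF, the cytokine that holds ES cells in the undifferentiated state, and were crosslinked with formaldehyde and DSG. An input library from cells with the same construct, made without antibody, is the other sample, and no file of it was used here. With 1 library per group there is no replicate error, and intervals cover counting error alone. The tagged cells were not compared with untagged ones, and whether they were 1 clone is not given in the sources used here. No expression values were used, so the cell type could not be checked against its markers.

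The stretch just outside a gene holds much of its nearby control DNA. Upstream of the start lie the promoter and, further out, proximal enhancers, short segments where transcription factors gather and act on the promoter. Downstream of the end, RNA polymerase often runs on past the site where the transcript is cut before it leaves the DNA. In ES cells, the genes of Oct4 (Pou5f1), Sox2 and Nanog are known for enhancers of this kind, at which the products of all these genes bind. Crosslinking with DSG joins proteins to each other, so a ChIP peak can mark DNA that a factor reaches through a partner.

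A peak's DNA could be shown where it overlapped a promoter window listed for a non-coding gene, which held for 5 of the peaks. Each window runs from 250 bases before to 50 bases after a gene's start (RefSeq, GRCm38.p6). All 5 lay at starts of long non-coding RNA (lncRNA) genes, and among these are Platr8 and Platr9, whose family name stands for pluripotency-associated transcripts. The overlapping bases are given 5′ to 3′ on the strand of the lncRNA gene, with matches to the searched motifs in capitals. The peak 4.22 kb upstream of Lgr4, a receptor gene for the R-spondins that amplify Wnt signalling, had a score of 5.70 and lay whole within the Platr8 window (chr2:109913344-109913507, minus strand). The peak 4.25 kb downstream of Cga, which encodes the shared alpha chain of glycoprotein hormones, had a score of 4.96 and shared 245 of its 273 bp with the Platr9 window (chr4:34911487-34911731, minus strand). The peak 4.75 kb downstream of Utf1, a chromatin factor of undifferentiated ES cells, had a score of 6.24 and lay whole within the Gm16201 window (chr7:139949780-139949949, plus strand). The peak 2.19 kb downstream of Mrpl51, a mitochondrial ribosomal protein gene, had a score of 5.36 and lay within the Gm52878 window (chr6:125196497-125196659, plus strand). The peak 1.23 kb upstream of Bahcc1 had a score of 7.45 and shared 165 of its 190 bp with the 2900052L18Rik window (chr11:120231568-120231732, minus strand). All 5 scores were under the median of 10.0 of the peaks on chromosomes 1 to 19.
Platr8: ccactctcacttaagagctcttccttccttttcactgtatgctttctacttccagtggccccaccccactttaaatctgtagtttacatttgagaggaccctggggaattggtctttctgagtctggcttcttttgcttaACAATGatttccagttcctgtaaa
Platr9: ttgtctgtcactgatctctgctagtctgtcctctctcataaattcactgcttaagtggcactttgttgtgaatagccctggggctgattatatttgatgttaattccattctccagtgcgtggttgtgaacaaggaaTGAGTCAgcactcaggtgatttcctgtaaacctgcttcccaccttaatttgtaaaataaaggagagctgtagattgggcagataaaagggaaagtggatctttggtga
Gm16201: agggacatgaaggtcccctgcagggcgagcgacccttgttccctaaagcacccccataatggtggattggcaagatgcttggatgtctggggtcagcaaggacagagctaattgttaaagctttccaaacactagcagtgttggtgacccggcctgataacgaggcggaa
Gm52878: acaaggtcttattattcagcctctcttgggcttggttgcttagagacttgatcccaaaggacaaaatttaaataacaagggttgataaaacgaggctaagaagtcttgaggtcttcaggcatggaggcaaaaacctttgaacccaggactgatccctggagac
2900052L18Rik: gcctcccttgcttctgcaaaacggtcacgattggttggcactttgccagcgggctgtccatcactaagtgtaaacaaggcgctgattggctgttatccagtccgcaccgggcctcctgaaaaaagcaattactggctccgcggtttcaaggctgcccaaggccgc

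The search used 13 short motifs on both strands. They were the octamer ATGCAAAT, ACAAAGG and ACAATG for Sox factors, TCAAGGTCA for Esrrb, GGGTGTGGC for Klf factors, TTCCNGGAA for Stat3, CACGTG for Myc, CTTTGAT for Tcf and Lef factors, AGGGGGCGC as part of the CTCF motif, AACCAG as one arm of the Tfcp2l1 site, TGANTCA for AP-1, AAGATGGCG for YY1 and CCGGAAG for Ets factors. The Platr8 peak held ACAATG 1 time, and the same 164 bases of 32544 promoter windows held it in 7.21% of cases. In the Platr9 peak TGANTCA was matched 1 time, against 6.65% of windows over the same 245 bases. No motif was matched in the other 3 peaks, and no printed match overlapped another. These are matches of letters, not binding sites.

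Members near the genes of Klf2 and Tfcp2l1, factors of the naive pluripotent state, were the strongest at the core pluripotency genes, with scores of 80.2 and 58.6. They lay beyond the promoter, 2.82 kb upstream of Klf2 (chr8:72316093-72316395) and 2.33 kb upstream of Tfcp2l1 (chr1:118625448-118625736). The sequence of these peaks was not used here, and the promoters are shown to mark the starts from which they were apart. The listed Klf2 window (chr8:72318812-72319111, plus strand, 69.3% G and C) matched AACCAG on its minus strand, as did 16.4% of all windows. The Tfcp2l1 window (chr1:118627695-118627994, plus strand, 65.3% G and C) matched none of the 13 motifs.
Klf2: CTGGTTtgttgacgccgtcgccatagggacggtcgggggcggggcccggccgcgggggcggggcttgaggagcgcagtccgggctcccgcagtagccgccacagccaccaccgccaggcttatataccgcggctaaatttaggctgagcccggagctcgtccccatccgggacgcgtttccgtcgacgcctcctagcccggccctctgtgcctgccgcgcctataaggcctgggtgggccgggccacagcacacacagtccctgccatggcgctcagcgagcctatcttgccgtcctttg
Tfcp2l1: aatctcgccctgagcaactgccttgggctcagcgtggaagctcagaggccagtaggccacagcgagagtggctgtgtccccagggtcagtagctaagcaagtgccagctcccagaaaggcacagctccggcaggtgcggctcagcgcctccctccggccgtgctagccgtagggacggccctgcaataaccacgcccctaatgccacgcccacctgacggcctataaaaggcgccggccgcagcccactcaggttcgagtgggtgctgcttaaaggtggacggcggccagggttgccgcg

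Scores of the 843 peaks ran from 1.37 to 149.4 with a median of 9.34 (quartiles 5.52 and 18.2). A score is the value the authors' peak caller gave each peak. It was taken to be −log10 of its q-value, so a higher score marks a peak that stands out more from its local background. The share with a score at or above the autosomal median was 47.2% (398 peaks, exact 95% interval 43.8 to 50.6%), beside 50.1% of all autosomal peaks. Peaks within 1 kb of a gene end had a median of 7.07, and 29.8% of them reached the autosomal median. Peaks 5 to 10 kb outside genes had a median of 11.2, those 10 to 100 kb outside had 10.8 and those over 100 kb outside 10.5. Peaks inside a gene had a median of 9.97, nearer to that of the members, and 49.7% of them reached the autosomal median. The members thus lay between gene-end peaks and more distant ones in median score, a difference that was not tested. A score of 30 or more was found at 106 members and one of 100 or more at 8, while 177 had a score under 5. Widths were alike across positions, with a median of 219 bp (135 to 2146 bp) for members and 211 bp for gene-end peaks.

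**Figure D1:**
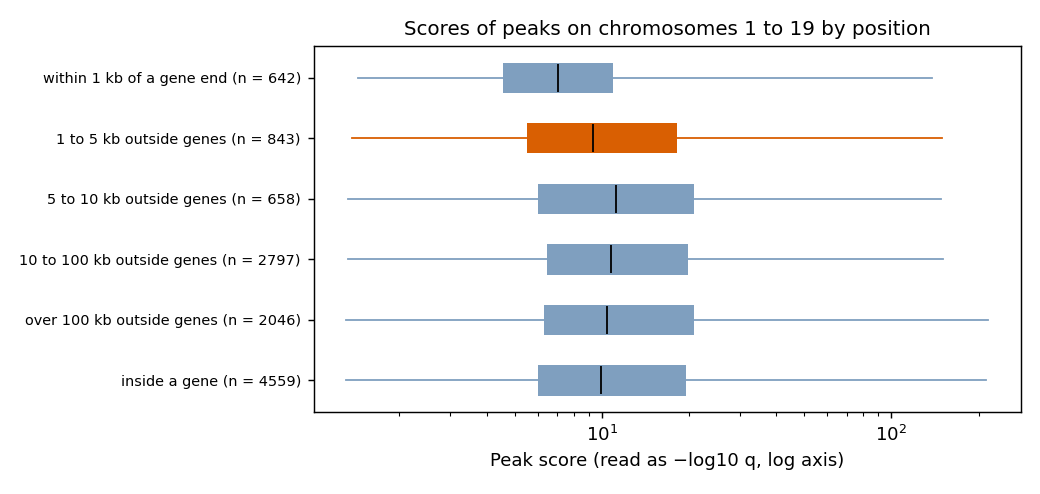
Peak scores (log axis) by position relative to protein-coding genes on chromosomes 1 to 19. Boxes span the quartiles, ticks mark medians and lines the full range. The orange box, the 843 peaks 1 to 5 kb outside genes, has its median at 9.34, above the 7.07 of gene-end peaks and below the 11.2 of peaks 5 to 10 kb outside.

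Peaks were denser next to genes than over the chromosomes as a whole. The flanks of 1 to 5 kb held 106.1 Mb, and so 7.95 peaks per Mb (exact Poisson 95% interval 7.42 to 8.50). Over these chromosomes as a whole there were 4.69 per Mb. Their length was counted up to the last peak or gene, without correction for unsequenced or unmappable stretches. From 1 to 2 kb there were 267 peaks, or 8.93 per Mb (7.89 to 10.1), and from 4 to 5 kb there were 175, or 7.46 per Mb (6.4 to 8.66). Past 5 kb the density did not fall steadily, with 6.69 per Mb at 5 to 6 kb, 7.17 at 6 to 7 kb, 6.70 at 7 to 8 kb, 7.85 at 8 to 9 kb (6.61 to 9.25) and 5.50 at 9 to 10 kb (4.44 to 6.73). The median score was 8.58 at 1 to 2 kb, 9.29 at 2 to 3 kb, 10.4 at 3 to 4 kb and 9.69 at 4 to 5 kb. Peaks at or above the autosomal median score had nearly the same density in these bins, 3.84 per Mb at 1 to 2 kb and 3.67 at 4 to 5 kb. At the inner limit, the nearest peaks that were taken lay 1000.5 bp from Rpl11 (score 10.1) and 1003 bp from Spred1 (26.2). Those just within 1 kb lay 997 bp from Rufy1 (5.29) and 997 bp from Anxa11 (13.4). At the outer limit, the last ones taken lay 4991 bp from Snx5 (8.75) and 4996 bp from Sf3b5 (4.07), and the next lay 5004.5 bp from Glrx2 (7.81) and 5008 bp from Ireb2 (13.7).

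The strand of the nearest gene was listed for 678 of the 843 peaks, and neither side held most of them. Upstream of the start lay 331 (48.8%, exact 95% interval 45.0 to 52.7%) and downstream of the end 347. Per Mb of flank, there were 7.49 upstream (6.71 to 8.34) and 8.65 downstream (7.76 to 9.61). Without peaks nearest to cytoplasmic ribosomal protein genes, 331 lay upstream and 315 downstream (51.2% upstream, 47.3 to 55.2%). The sides differed more in score. Upstream peaks had a median of 10.6 (quartiles 5.87 and 22.7) and downstream peaks one of 8.58 (4.99 and 14.7), and 52.6% against 41.8% reached the autosomal median. Among peaks with a score of 30 or more, 55 of 87 lay upstream (63.2%, exact 95% interval 52.2 to 73.3%). Of those at or above the autosomal median 174 of 319 did (54.5%, 48.9 to 60.1%), and of those under it 157 of 359 (43.7%, 38.5 to 49.0%). The upstream flank was the longer, 44.2 Mb against 40.1 Mb, so an even density would also put more peaks upstream. Between 0 and 1 kb, just short of the inner limit, the downstream density was 13.3 per Mb and the upstream one 9.46. Peaks in gaps where both neighbouring genes end had the highest density, 9.81 per Mb (8.18 to 11.7), and the lowest median score, 8.21 over 128 peaks. Peaks that form a string in the same gap are not independent, so the density intervals here and above are too narrow. Gaps where both neighbours start held 127 peaks (7.57 per Mb, median score 9.56), and gaps between genes that point the same way held 327 (7.73 per Mb, median score 9.95).

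**Figure D2:**
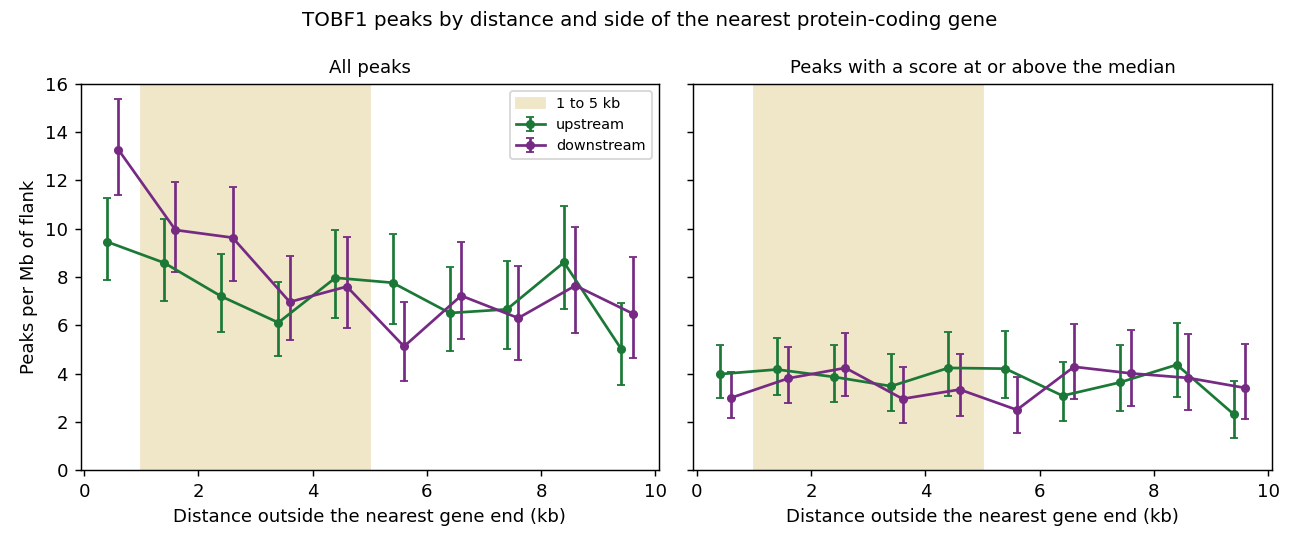
Peaks per Mb of flank in 1 kb bins outside the nearest protein-coding gene of listed strand, for all peaks (left) and for those at or above the autosomal median score (right). Points are densities, bars exact Poisson 95% intervals, and the shaded band is the 1 to 5 kb zone. The intervals count neighbouring peaks as independent and are too narrow. For all peaks, downstream densities exceed upstream ones up to 4 kb, and the intervals of the sides are apart only from 0 to 1 kb; for stronger peaks they overlap in every bin.

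The 20 strongest members belonged to genes of many kinds, and scores there ran from 70.4 to 149.4. Kat2b, which encodes a histone acetyltransferase, had the highest, 4.97 kb upstream of its start (chr17:53561574-53562043, 149.4). Next came a peak 1.29 kb downstream of Rundc3b (chr5:8488859-8489239, 124.3) and another 3.19 kb upstream of Adam23, a cell-surface protein of the ADAM family (chr1:63442085-63442961, 119.2). Dstyk, a kinase gene, had one 4.28 kb downstream (chr1:132470983-132471493, 111.6), inside the lncRNA gene 6030442K20Rik, and Enah, an actin regulator, one 2.85 kb upstream (chr1:182030183-182030619, 111.3). Near receptor genes for pheromones and odours there were Vmn2r82 (chr10:79399967-79400451, 108.2) and Olfr510 (104.6). A peak between Dmrtc2 and the ribosomal protein gene Rps19 had 103.2, 2.10 kb downstream of the former and 4.84 kb upstream of the latter. The others were nearest to Cyp2c69 (96.3), Ifitm7 (85.4), Negr1 (81.6), B3gnt7 (80.7), Klf2 (80.2), Lekr1 (79.7), Il6st (76.8), Gm14444 (76.7), Aadacl2fm3 (73.3), Jam2 (71.8), Mroh2b (70.8) and Casq2 (70.4). Of the 18 with a listed strand, 10 lay upstream and 8 downstream, and 8 of the 20 had another peak within 10 kb.

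A member lay 1 to 5 kb outside 780 of 20665 protein-coding genes, a background of 3.77%. Because neighbouring genes can share a peak, 92 members counted for 2 genes and 3 for 3 genes. Most genes, 685, had 1 such peak, and 31 had 3 or more. A peak within 1 kb of an end was also present at 93 of the 780 (11.9%, exact 95% interval 9.73 to 14.4%), beside 2.79% of all protein-coding genes. Between their ends, 183 had a peak (23.5%, 20.5 to 26.6%), beside 14% of all. Gene lengths were close, with a median of 19038.5 bp for these genes and 17491 bp for all. Of genes of listed strand, 321 had a member downstream (1.95%) and 322 one upstream (1.96%), and 19 belong to both counts. A gene-end peak was also present at 54 of the former (16.8%, 12.9 to 21.4%) and 25 of the latter (7.76%, 5.09 to 11.2%).

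Of 39 core pluripotency genes on these chromosomes, 22 had a member (56.4%, exact 95% interval 39.6 to 72.2%), beside the background of 3.77%. This list, like the others, was written with earlier results of these data known, so its share is descriptive only. The members fell on both sides of these genes, 12 upstream and 13 downstream among the 25 pairs of gene and peak with a listed strand. The scores of the 32 peaks ran from 1.96 to 80.2 with a median of 7.46, and 14 of them reached the autosomal median. Strong upstream peaks stood at Klf2 (80.2), Tfcp2l1 (58.6), Jarid2 (chr13:44728572-44728815, 36.4), a partner of the PRC2 complex, and Sox2 (chr3:34646307-34646578, 30.4). Sox2 also had a downstream peak at 1.53 kb (chr3:34653773-34654201, 16.8), and both Sox2 peaks lay inside the lncRNA gene Sox2ot, which surrounds it. Nanog had peaks at 4.85 kb (chr6:122702553-122702732, 16.5) and 4.49 kb (chr6:122702864-122703128, 5.71), both upstream. At Pou5f1 there was an upstream peak at 1.94 kb (chr17:35503957-35504228, 11.5), inside the lncRNA gene Gm32362. Downstream peaks stood at Spp1, a secreted phosphoprotein gene (33.8), at Otx2, a factor of the transition out of the naive state (10.7 and 4.43), and at Gbx2 (6.87).

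At Zfp42, the gene of the ES cell marker Rex1, 5 members lay downstream of the end, from 1.18 to 4.65 kb, with scores of 4.06 to 15.9. They belonged to a run of 15 peaks, and without runs of 6 or more peaks 21 core genes still had a member. Dppa3 (31.7), a maternal factor that protects DNA methylation in the zygote, and Dppa5a (14.2 and 3.92), Lefty2 (8.05), Rif1 (5.86), Dppa2 (5.42) and Klf5 (1.96) had members on a side that was not listed. Lower scores upstream were those of Mybl2 (8.56 and 3.51), Mycn (6.49) and Tdgf1 (5.58 and 2.29). Downstream, Utf1 (6.24), Tet1 (4.0) and Esrrb (1.96) completed the list. Of the 22 genes, 14 also had a peak inside or within 1 kb of an end.

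Cytoplasmic ribosomal protein genes had members almost entirely beyond their 3′ ends. A member was found at 25 of 75 of these genes (33.3%, exact 95% interval 22.9 to 45.2%), beside 3.77% of all protein-coding genes. In the 34 pairs with a listed strand, 33 were downstream (97.1%, 84.7 to 99.9%), against 51.4% over all 759 pairs of genes and members (47.8 to 55.0%). The 33 pairs came from 18 genes. Both intervals count pairs as independent, which peaks at the same gene are not, so they are too narrow. Among the 54 ribosomal genes of listed strand, 18 had a downstream member and 1 an upstream one, beside backgrounds of 1.95% and 1.96%. The upstream one was that of Rps19, which lay nearer to Dmrtc2. Median score was 6.65 over 47 peaks, and 12 reached the autosomal median.

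The highest downstream scores were those of Rps12 (20.1 at 1.88 kb and 15.7 at 3.07 kb), Rpsa (16.3), Rps19 (15.4), Rps3 (13.4), Rpl37a (13.2), Rps23 (12.6) and Rpl11 (10.1). Rplp1 (30.5 and 13.7) and Rpl30 (12.5) had no listed strand. Several genes had a series of members on the downstream side. Rps23 had 4 between 1.81 and 3.35 kb, with scores of 12.6, 9.05, 8.59 and 6.65, and Rps24 had 4 between 1.48 and 3.49 kb, with scores of 5.87, 5.65, 4.78 and 3.88. Rpl37a had 3 from 1.34 to 3.36 kb (13.2, 9.72 and 6.10). The peaks of a series share a locus and are not independent. A peak inside the gene or within 1 kb of an end was also present at 14 of the 25.

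Splicing factor genes had weak members, most of them downstream. Members were found at 10 of 53 genes (18.9%, exact 95% interval 9.44 to 32.0%), beside 3.77% of all protein-coding genes. Of the 12 pairs, 11 were downstream (91.7%, 61.5 to 99.8%), beside 51.4% over all pairs. The pairs came from 10 genes and are not all independent, so this interval too is too narrow. The one upstream was at Srsf6, an SR protein gene (7.94 at 3.18 kb), which also had a downstream one (3.40). Downstream scores were 5.71 at Srsf3, 4.87 at Pcbp1, 4.53 at Sf1, 4.42 and 2.10 at Tra2b, 3.87 at Hnrnph1, 3.78 at Hnrnpf, 3.12 at Hnrnpk, 2.24 at Hnrnpc and 1.56 at Srsf11. None of these 12 peaks reached the autosomal median, so this list rests on weak peaks. None of the 10 genes had a peak inside or within 1 kb of an end.

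**Figure D3:**
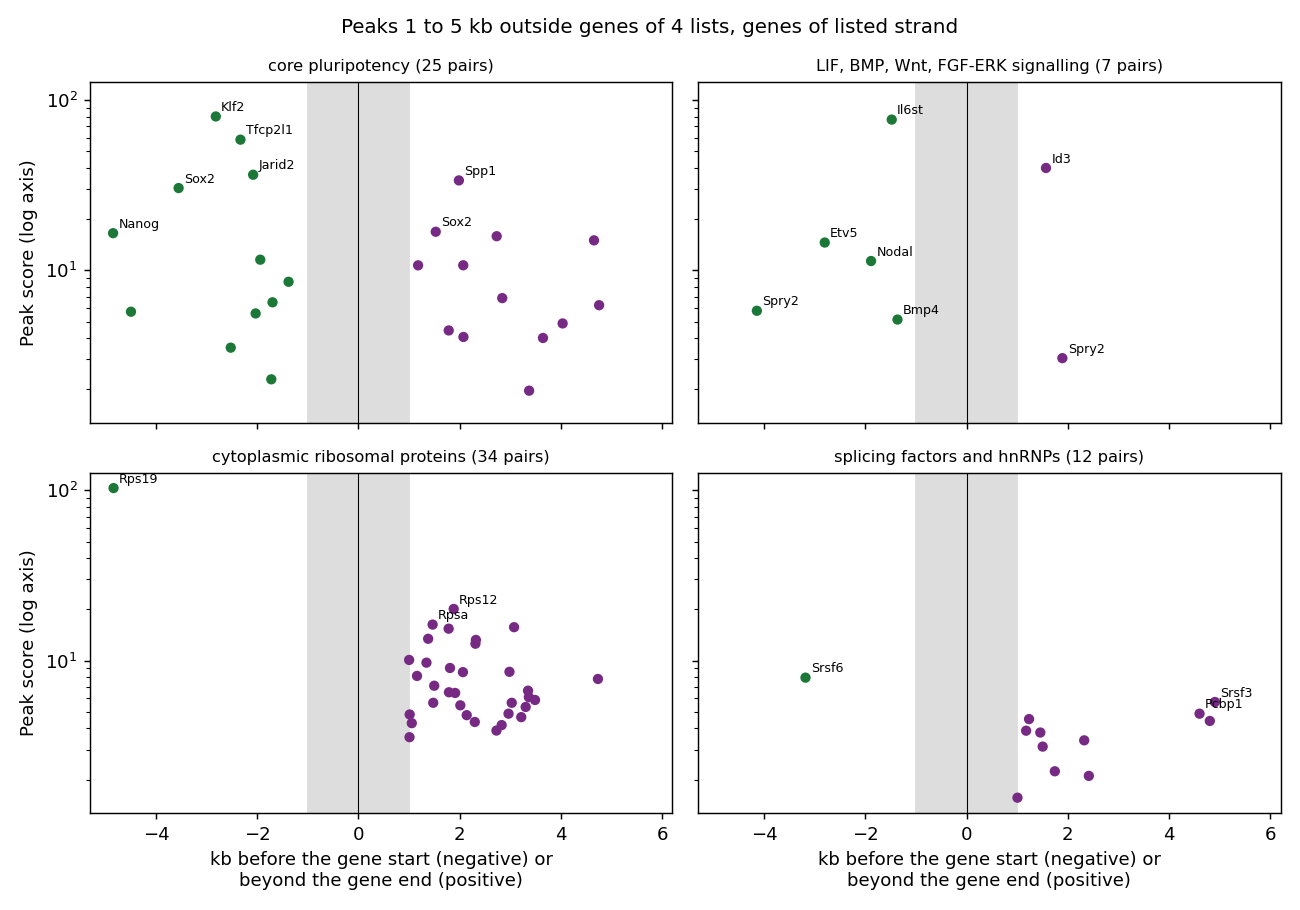
Score (log axis) against signed distance in kb for members at genes of listed strand in the core pluripotency, signalling, ribosomal protein and splicing lists. Each point is a gene and peak pair, green upstream and purple downstream, and the grey band is the excluded first kb. Core pluripotency pairs fall on both sides (12 and 13), and ribosomal ones on the downstream side in 33 of 34 cases.

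Of 40 genes of LIF, BMP, Wnt and FGF-ERK signalling, 8 had a member (20%, exact 95% interval 9.05 to 35.6%), beside 3.77% of all protein-coding genes. Among receptors, Il6st, which encodes the gp130 chain of the LIF receptor, had a peak 1.48 kb upstream with a score of 76.8 (chr13:112462458-112462726). Among secreted factors, the ligands Nodal (11.3) and Bmp4 (5.14) had one upstream, and the Nodal inhibitor Lefty2 (8.05) one on an unlisted side. Of the targets and feedback genes, Id3, a BMP target, had one 1.57 kb downstream (39.9), Etv4 and Etv5, Ets factors of the FGF-ERK pathway, had 31.1 and 14.6, and Spry2, an inhibitor of that pathway, had 5.79 upstream and 3.05 downstream. Of the 7 pairs of listed strand, 5 were upstream and 2 downstream (28.6% downstream, exact 95% interval 3.67 to 71.0%). The 51.4% downstream over all pairs lies within that interval.

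Other lists held fewer genes with a member. Immediate early and stress genes had 5 of 32 (15.6%, exact 95% interval 5.28 to 32.8%), with Gadd45a (20.7), Dusp1 (15.7) and Hsp90aa1 (9.08) the highest. Chromatin and DNA methylation genes had 4 of 38, led by Chd1 (9.11), Kdm4c (8.58) and Tet1 (4.0), and paraspeckle protein genes had 2 of 17, Cpsf6 (13.7) and Hnrnpk (3.12). Developmental regulators bound by PRC2 had 4 of 58 (6.90%, 1.91 to 16.7%), among them Sox21 (50.6) and Foxa2 (7.45). Lists of other functions and tissues had 2 of 44 for cell cycle and repair (Chek2 and Ccnd3), 2 of 36 for oxidative phosphorylation (Ndufv2 and Ndufs1), and 2 of 26 for trophectoderm, endoderm and mesoderm (Myf5 and Foxa2). Neural genes had 1 of 15 (Nefm), blood and immune genes 1 of 26 (Cd14) and liver genes 0 of 27 (exact upper limit 12.8%). The background of 3.77% lies within the exact interval of each of these lists except that of immediate early and stress genes.

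**Figure D4:**
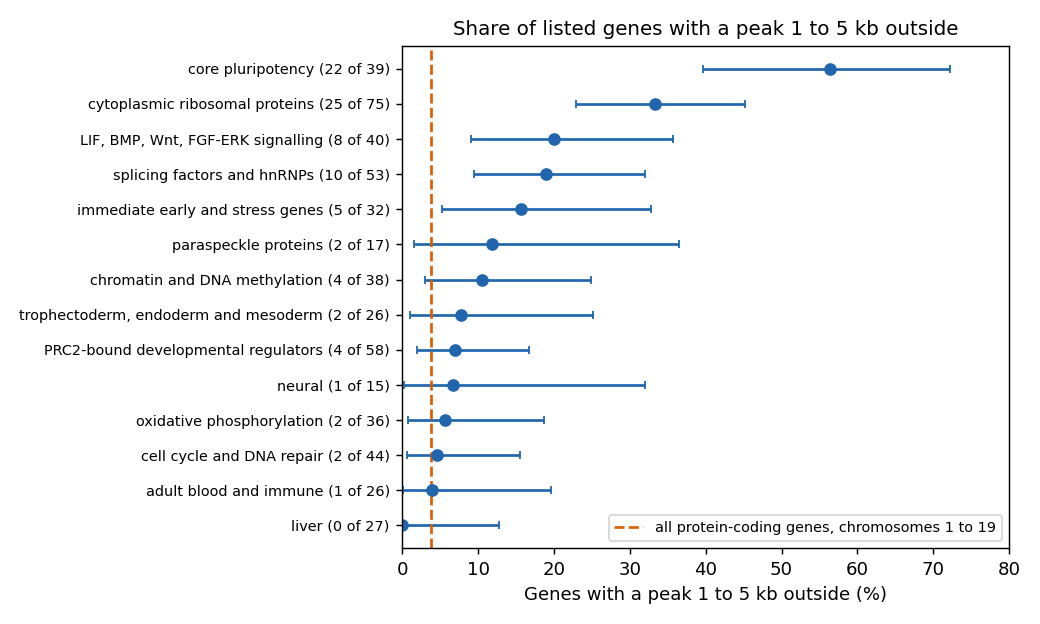
Share of each list's genes on chromosomes 1 to 19 with a peak 1 to 5 kb outside (points, %), with exact 95% intervals. The dashed line is the 3.77% of all protein-coding genes. Core pluripotency (56.4%) and ribosomal protein genes (33.3%) stand farthest to the right. The lists were written with earlier results of these data known.

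Members near receptor genes for odours and pheromones included some of the strongest. Of 1104 olfactory receptor genes, 26 had a member (2.36%, exact 95% interval 1.54 to 3.43%), and of 354 vomeronasal receptor genes 7 did (1.98%, 0.799 to 4.03%), beside the background of 3.77%, which lies above the first interval and within the second. The 28 members nearest to an olfactory receptor gene had a median score of 14.5, and 18 of them reached the autosomal median. These families were chosen after the values were seen.

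Some genes had strings of members. Gm15319 had the most, 12, on both sides, with scores of 2.47 to 32.5, in a run of 73 peaks on chromosome 8. B3gnt7, a glycosyltransferase gene, had 6 members downstream between 1.23 and 4.37 kb (4.74 to 80.7), in the gap towards the end of Ncl, which encodes the nucleolar protein nucleolin. The gap between Fgf18 and Npm1, the gene of the nucleolar protein nucleophosmin, held 6 (3.10 to 8.29), which count for both genes. Eef1a1, a translation elongation factor gene, had 5 downstream from 1.29 to 3.12 kb (4.81 to 6.83), and the same 5 count for its neighbour Mto1. Slc3a2, an amino acid transporter subunit gene, had 6 upstream (2.42 to 17.0), Snx5, a sorting nexin gene, 5 downstream (5.02 to 8.75) and Zfp42 its 5. The Slc3a2 members at 1.28, 1.72 and 2.34 kb lay inside the lncRNA gene Snhg1. In all, 39.4% of members had another peak within 10 kb (332, exact 95% interval 36.1 to 42.8%), beside 52.8% of gene-end peaks and 35.6% of peaks 5 to 10 kb outside. Runs of 6 or more peaks at gaps of up to 10 kb held 99 members in 32 runs. These were 11.7% of members, beside 6.38% of peaks 5 to 10 kb outside and 3.43% of those 10 to 100 kb outside. Gene-end peaks had a larger share in such runs, 122 of 642.

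**Figure D5:**
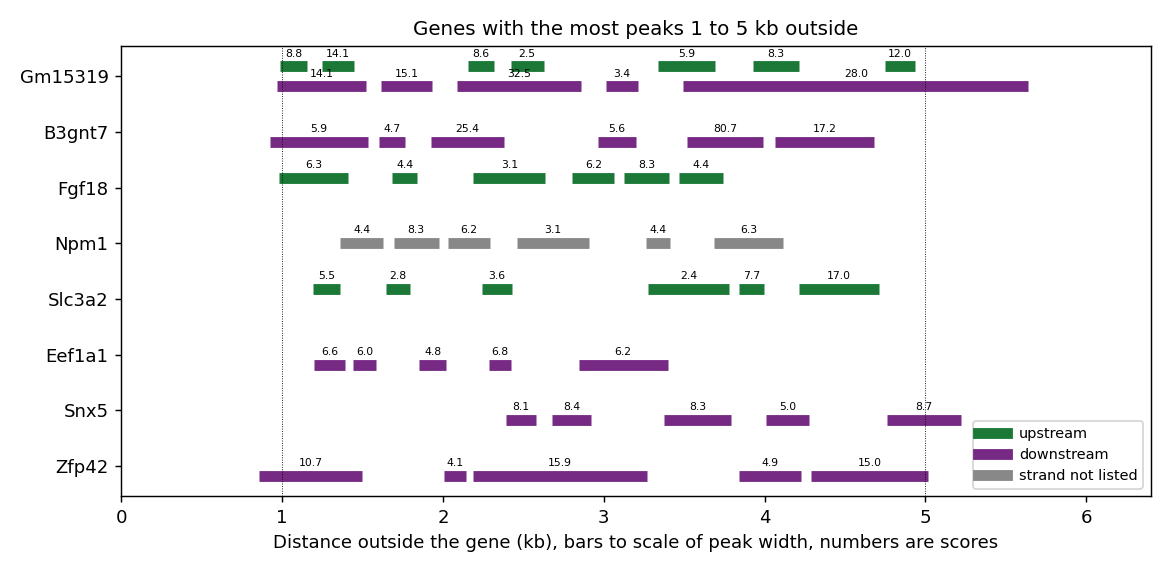
The 8 genes with the most members, with each peak drawn to the scale of its width at its distance in kb outside the gene, and its score above it. Green bars lie upstream, purple ones downstream and grey ones at a gene of unlisted strand. The members of Eef1a1, Snx5, Zfp42 and B3gnt7 all lie downstream, and those of Fgf18 and Npm1 are the same 6 peaks.

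Genes of lncRNAs covered members about as often as they covered the flanks. The midpoint of 86 members lay inside a lncRNA gene (10.2%, exact 95% interval 8.24 to 12.4%), and such genes covered 10.1% of the flanks. Their scores had a median of 8.09 and reached 111.6. Within 1 kb of a lncRNA gene end lay 43 members (5.10%, exact 95% interval 3.72 to 6.81%), with no share of the flanks to set beside this. The highest after 6030442K20Rik were inside Gm30416 (58.3), Gm51471 (55.1), Gm32311 (44.7) and Panct2 (43.0), whose peak was 2.65 kb upstream of Slco4c1. By chromosome, the share of peaks that were members ran from 3.04% on chromosome 12 (14 of 461) to 10.5% on chromosome 19 (30 of 287).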

How the data were processed

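Genome-wide binding of TOBF1 was measured by ChIP-Seq in 1 library, and the deposited peak list was used. The submitters' processing notes name cutadapt, Bowtie2, MACS2, bedtools and the mm10 build, without versions or settings. Deposited scores were taken to be −log10 q-values, as the lowest was 1.30. Depth is unknown, and the role of the input in peak calling is not given in the sources used here. Genes came from RefSeq (GRCm38.p6, the positions of mm10), and strands from its promoter table, which gave them for 16457 of 20665 protein-coding genes on chromosomes 1 to 19 (79.6%). Flank lengths were counted over gaps between genes by the rule used for peaks. A list gene counted when a member lay over 1 kb and up to 5 kb outside its own end. The 14 lists held 547 entries, 1 of them unmatched. Members and lists were chosen with earlier results of these data known, and no test was run. Genes named are the 20 highest members, the highest of each list and the 8 genes with most members (Mto1, tied at 5, shares the peaks of Eef1a1); others were chosen after their values were seen, as were the peaks whose sequences are shown. One listed gene is not reported here by name. A planned motif search in all peaks was not run. On simulated data, 200 of 200 peaks placed at known distances and sides were recovered. Computations used pandas 2.3.3 with NumPy 2.4.6, intervals SciPy 1.17.1 and plots matplotlib 3.10.9, under Python 3.11.15.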

Additional observations from a re-analysis of the deposited data

Results flagged for a closer look

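On chromosomes X and Y, which no comparison used, 24 peaks met the same rule, all of them on X, and 10 of these were nearest to Bclaf3, which RefSeq also lists as A830080D01Rik, the gene of the tagged protein, or to its neighbour Sh3kbp1. They are given because they are peaks outside the comparisons. The cells also carried Bclaf3 in tagged form on the BAC. Whether reads from those added copies contributed to the peaks there was not tested, so binding at this locus cannot be told apart from them.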

How the results depend on the processing

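Of 107 values recomputed under an alternative, 89 stayed within 1.5 times (counts) or within the 95% interval (shares and medians). With only peaks at or above the median score there were 398 members at 401 genes, 54.5% upstream, at 11 core pluripotency, 5 signalling, 9 ribosomal and 0 splicing genes; fewer peaks were counted. With genes of every type, members were 10.4% of peaks, at 1284 genes. From 500 bp the share was 8.78%, and up to 10 kb it was 13.0% (1501 members at 1442 genes, 13 signalling). Merging peaks within 1 kb gave 6.81%, a median score of 10.4 and 52.5% at or above the autosomal median. Each merged peak took the highest score of its parts, while the cut-off stayed that of the unmerged list. The rise in both values is thus partly built in, and the share of all merged peaks was not computed. Without runs of 6 or more peaks, an alternative chosen after seeing the data, the share was 6.80%. Leaving out ribosomal genes, also chosen then, moved none of the values. The share of ribosomal pairs that were downstream stayed between 88.9% and 97.9%. The motif alternative was not run. No paired analysis was possible because each group has 1 library. Sequencing depth, the control of the call and signal from untagged cells limit every score.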
